A study of Caenorhabditis elegans with 4 samples.

Results

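The genes described here act where a Wnt signal meets gene control in the Caenorhabditis elegans embryo: pop-1, sys-1, wrm-1, bar-1, apr-1, gsk-3, lit-1, mom-4, dsh-2 and mig-5. They were chosen by name, as 10 of the 37812 gene rows of the deposited table. Of these, 9 were found by exact name. The row of apr-1 carries a calendar date in place of its name, and was recovered by the gene ID that the table of transcription start sites pairs with apr-1. The study made 4 libraries of total RNA from N2 (wild-type) embryos of mixed early stages, 1 cell to 350 cells. The control libraries (2) are labelled L4440, the RNAi vector with no insert, and the others (2) carry RNAi directed at sig-7, the gene of a cyclophilin of the nucleus that also binds RNA. The labels give a growth of 72 h on OP50 bacteria for both groups, and how RNAi was given is not stated there. The deposited tables hold 1 pooled FPKM value per group (fragments per kilobase of transcript, scaled to the mapped fragments), so no level below has a spread of its own, and the depth of each library is unknown.

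In most animals 1 beta-catenin both holds cells together and carries the Wnt signal to a TCF factor in the nucleus. In C. elegans these duties are divided among separate genes. POP-1 is the TCF factor, and with a corepressor it holds target genes off. SYS-1 is the beta-catenin that turns POP-1 into an activator. WRM-1 is a further beta-catenin that works with the kinase LIT-1 to send POP-1 out of the nucleus. The balance of SYS-1 and POP-1 separates sister cells along the anterior-posterior axis, among them those of the division that founds the endoderm.

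A change is called here where the q-value of the authors' Cuffdiff test was under 0.05. Cuffdiff tested 10703 genes, of which 17.3% fell and 11.2% rose. The deposited test statistic also implies a standard error (SE) for each log2 ratio (sig-7 RNAi over control), which is given below with its 95% interval. It is the error of Cuffdiff's model and was not measured on single libraries. No label says that libraries of 1 group were grown separately, so this error may be technical. The target itself, sig-7, stood at 21.9% of its control level. Its deposited locus covers 1825 of 5221 annotated bases, so this value may stand for part of the gene. Of the 8 early embryo markers, all were between 13.8 and 274.2 FPKM in the control, while 4 of 6 sperm markers were listed at 0 in both groups and the 5 adult markers summed to 0.124 FPKM in control embryos and 0.173 FPKM after sig-7 RNAi. By Cuffdiff's q, skn-1 fell and nos-2 rose among the early embryo markers, end-1 and ceh-51 fell and med-2 rose among 8 early zygotic markers, and 0 of 4 oocyte and germ line markers were called (0 also by an unadjusted p under 0.05). The early zygotic markers end-1, end-3, tbx-35 and ceh-51 are also among the pathway targets described below. The deposited locus of skn-1 covers 1332 of 9346 annotated bases, so its value may stand for part of the gene. The markers oma-2 and pos-1 lie in a locus shared by 288 gene rows, with implied SEs of 1.87 and 0.94. For them a missing call says little. Whether the groups held the same mixture of stages was not tested.

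Among the 9 tested genes, gsk-3, lit-1 and wrm-1 fell and 0 rose in sig-7 RNAi. The gene of the kinase GSK-3 was 2.98-fold lower, that of the kinase LIT-1 1.94-fold lower and that of the beta-catenin WRM-1 1.49-fold lower. The fall of 3 in 9 stands beside 17.3% of all tested genes. All 9 had at least 10 FPKM in the control, and among tested genes at that level 15.0% fell and 18.6% rose. By Cuffdiff's unadjusted p under 0.05, likewise 3 fell and 0 rose, but the share of all tested genes at that p is not given here. In these bulk embryos, fewer cells of a type and less RNA per cell cannot be told apart. The median log2 ratio of the 9 genes was -0.57, against -0.01 over all tested genes.

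**Figure D1:**
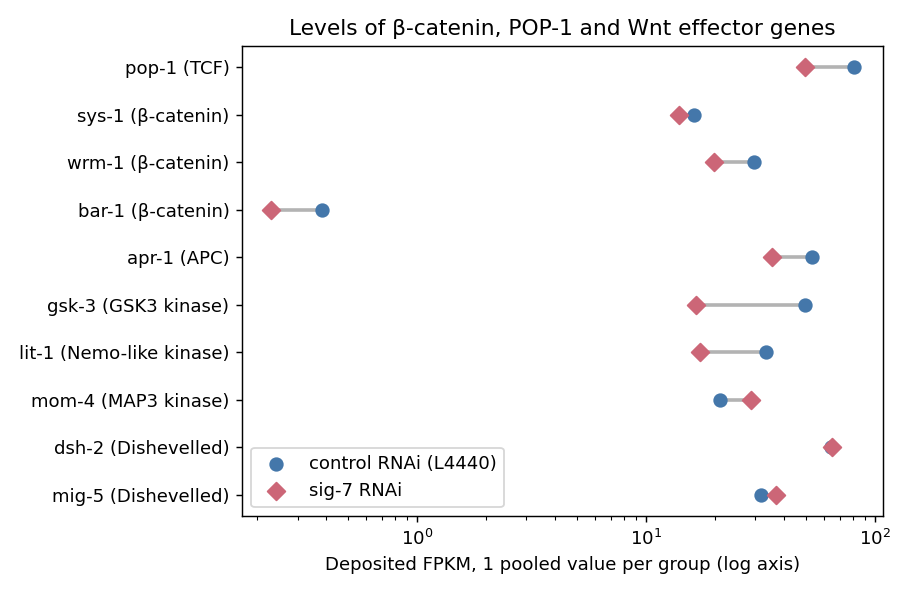
Deposited FPKM (log axis) of each gene in control RNAi (circles) and sig-7 RNAi (diamonds), 1 pooled value per group, ordered by role. The widest gap is that of gsk-3, from 49.5 to 16.6 FPKM, and bar-1 lies below 0.4 FPKM in both groups.

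In the control the levels ran from pop-1 at the top to bar-1 at the bottom. The order was pop-1 (80.8 FPKM), dsh-2 (64.4), apr-1 (52.9), gsk-3 (49.5), lit-1 (33.5), mig-5 (31.8), wrm-1 (29.6), mom-4 (21.1), sys-1 (16.3) and bar-1 (0.385). In sig-7 RNAi dsh-2 came first with 64.6 FPKM, and gsk-3 moved from place 4 to place 8. Since a level has no spread of its own, neighbours in this order, such as lit-1 and mig-5, cannot be separated by a test.

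POP-1 itself could not be judged well. pop-1 was at 80.8 FPKM in control embryos and 49.4 FPKM after sig-7 RNAi, 1.64-fold lower. Its log2 ratio was -0.71 with an implied SE of 0.81 and an interval of -2.29 to 0.87, and the deposited q was 0.613. This interval holds both a large fall and a rise, so the data do not show that pop-1 kept its level. The deposited locus of pop-1 (chromosome I, 2571530 to 2967292 on ce10) is 395763 bases long and is shared by 110 gene rows, whereas the annotated gene spans 8069 bases. Of the 56 tested genes in that locus, 0 were called, and 0 had an unadjusted Cuffdiff p under 0.05.

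apr-1, the gene of the APC-like scaffold that binds beta-catenins, lies in a similar block. It was at 52.9 FPKM in control embryos and 35.3 FPKM after sig-7 RNAi, 1.50-fold lower, with a log2 ratio of -0.58, an implied SE of 1.16 and a deposited q of 0.850. Its locus (chromosome I, 7741936 to 8394405) holds 150 gene rows, of which 87 were tested and 0 were called. The annotated span of apr-1 is 5439 bases.

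The width of these intervals was general to such loci. In loci of over 100 gene rows, 2 of 1703 tested genes were called (0.117%), against 35.9% of the 7132 tested genes with a locus of their own. The median implied SE was 4.66 in the former and 0.292 in the latter. Even among genes at 10 FPKM or more in the control and at least 2-fold lower in sig-7 RNAi, 1 of 124 was called in loci of over 100 rows, and 474 of 498 in loci of 1 row. The other 7 tested genes described here lie in loci of 1 to 3 rows, with implied SEs of 0.207 to 0.298. In loci of at most 100 rows 20.5% of tested genes fell, beside gsk-3, lit-1 and wrm-1 among these 7.

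**Figure D2:**
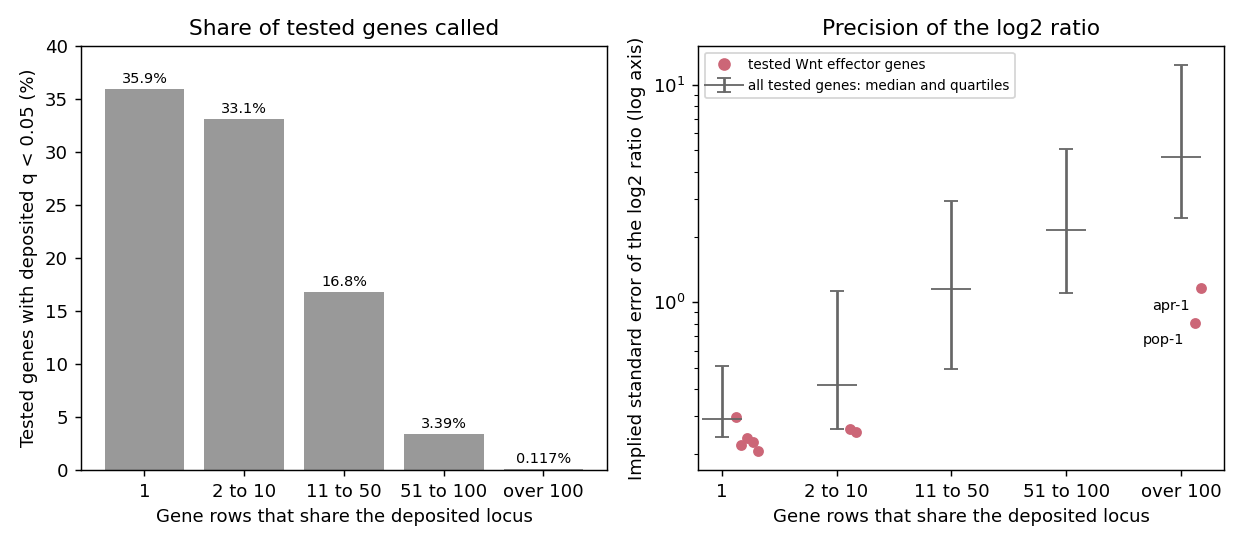
Left, percentage of tested genes with a deposited q under 0.05 by the number of gene rows that share the deposited locus. Right, implied standard error of the log2 ratio (log axis) for all tested genes (median and quartiles) and for the 9 tested Wnt effector genes (points). The share called drops from 35.9% to 0.117%, and pop-1 and apr-1 stand in the last class.

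Of the beta-catenin genes, wrm-1 fell, sys-1 was not called and bar-1 was not tested. wrm-1 (chromosome III, 5722837 to 5726704 on ce10) was at 29.6 FPKM in control embryos and 19.9 FPKM after sig-7 RNAi. Its log2 ratio was -0.57 with an implied SE of 0.22 (interval -1.01 to -0.14), and it fell in the authors' Cuffdiff test with q = 0.0368. sys-1, the POP-1 coactivator, was at 16.3 and 13.9 FPKM, a log2 ratio of -0.23 with an interval of -0.81 to 0.36 that reaches from a clear fall to a modest rise. Its deposited q was 0.686. The locus of sys-1 (chromosome I, 9982646 to 9984776) covers 2131 bases of an annotated span of 4732, so the value may stand for part of the gene. The difference between wrm-1 and sys-1 was not tested, and their intervals overlap.

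bar-1, the beta-catenin of larval Wnt signalling, for example in the vulva, was at 0.385 FPKM in control embryos and 0.230 FPKM after sig-7 RNAi. Cuffdiff marked it as not tested, and no gene with that same mark exceeded 0.457 FPKM. Its exons overlap those of pgp-10 on the opposite strand, which was at 0.723 and 0.207 FPKM and fell (Cuffdiff q = 0.000878). The libraries were stranded, but whether the authors counted by strand is not stated in the sources used here. The deposited values of bar-1 and pgp-10 may therefore share reads.

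With hmp-2, the beta-catenin of cell adhesion, the 4 beta-catenin genes summed to 92.8 FPKM in control embryos and 76.7 FPKM after sig-7 RNAi. hmp-2 gave 50.2% of the sum in the control and 55.7% in sig-7 RNAi, wrm-1 31.9% and 25.9%, sys-1 17.5% and 18.1%, and bar-1 0.415% and 0.300%. In both groups hmp-2 had the highest deposited FPKM of the 4 and bar-1 the lowest. The shares were not tested, and that of sys-1 rests on a value that may stand for part of the gene. hmp-2 was not called, at 46.6 and 42.7 FPKM with an interval of -0.54 to 0.29 on the log2 scale.

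**Figure D3:**
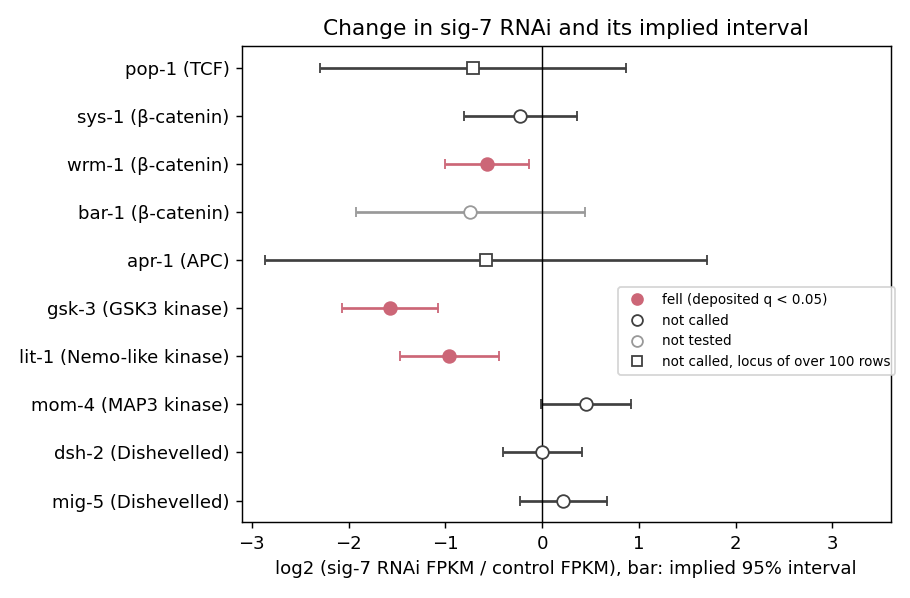
log2 of the FPKM ratio, sig-7 RNAi over control, for each gene with the 95% interval implied by the deposited statistic. Filled points fell by the deposited q, open points were not called or not tested, and squares mark loci of over 100 gene rows. The intervals of gsk-3, lit-1 and wrm-1 lie below 0, and those of pop-1 and apr-1 are the widest.

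Of the kinases, gsk-3 had the largest fall. GSK-3 marks beta-catenin for destruction in the canonical pathway, and in the early C. elegans embryo it also acts on the positive side of endoderm specification. gsk-3 (chromosome I, 12819352 to 12824655) was at 49.5 FPKM in control embryos and 16.6 FPKM after sig-7 RNAi, or 33.5% of its control level. The log2 ratio was -1.58 with an implied SE of 0.25 (interval -2.07 to -1.08), and the deposited Cuffdiff q was 1.22e-08. Among tested genes with a finite ratio, 18.3% had a lower one. In level among tested genes, gsk-3 passed from percentile 86.4 in the control to percentile 60.7 in sig-7 RNAi.

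lit-1, the Nemo-like kinase that phosphorylates POP-1 together with WRM-1, was at 33.5 FPKM in control embryos and 17.2 FPKM after sig-7 RNAi. Its log2 ratio was -0.96 with an implied SE of 0.26 (interval -1.47 to -0.44), and it fell in the deposited table (Cuffdiff q = 0.00182). The gene (chromosome III, 13702091 to 13723362) was divided by the authors into 5 isoforms, each with its own start site. The most abundant isoform was at 16.1 and 11.2 FPKM and did not pass the test (Cuffdiff q = 0.261). The second was at 13.1 FPKM in control embryos and 0.000394 FPKM after sig-7 RNAi, and Cuffdiff set it aside as having too little data for a test. The third was at 3.70 and 5.56 FPKM and was not tested, and the remaining isoforms stayed below 0.5 FPKM.

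The second isoform held 39.1% of lit-1 in the control and made up 80.5% of the drop in the gene's FPKM. With it left out, lit-1 summed to 20.4 FPKM in control embryos and 17.2 FPKM after sig-7 RNAi, a log2 ratio of -0.24. The fall of lit-1 thus lay mostly in an isoform that had no test of its own. Of 736 start site groups with too little data, 3 had 10 FPKM or more in the control and under 0.01 FPKM in sig-7 RNAi. The opposite was seen in 0. How many of the 736 reached 10 FPKM in the control is not given here, so how rare this pattern is cannot be said. The tables do not pair these isoforms with named transcripts, so which lit-1 protein each encodes is not given.

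mom-4, the MAP3 kinase that acts above LIT-1, was at 21.1 FPKM in control embryos and 28.8 FPKM after sig-7 RNAi. Its log2 ratio of 0.45 (interval -0.02 to 0.92) missed the threshold with a deposited Cuffdiff q of 0.151. The ratio turned to -0.30 with both groups scaled to equal total FPKM, but was 0.46 when centred on the median of tested genes. Same-strand exons of col-64, at 0.238 and 0.250 FPKM, overlap it.

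**Figure D4:**
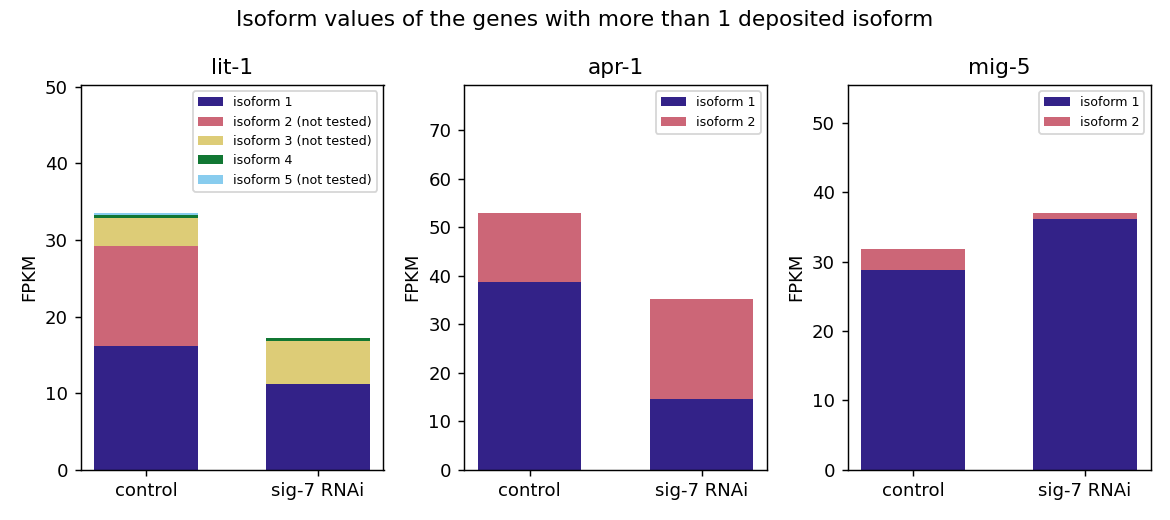
Deposited isoform FPKM, stacked, in control and sig-7 RNAi for the 3 genes with more than 1 isoform, with isoforms numbered by control level. The second lit-1 isoform, 13.1 FPKM in the control, is missing from the sig-7 RNAi bar.

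The Dishevelled genes dsh-2 and mig-5 were not called. Dishevelled proteins pass the signal from Frizzled receptors to the complex that controls beta-catenin. dsh-2 (chromosome II, 5078678 to 5081149) was at 64.4 FPKM in control embryos and 64.6 FPKM after sig-7 RNAi, with an interval of -0.40 to 0.41 on the log2 scale (Cuffdiff q listed as 0.999935). mig-5 was at 31.8 FPKM in control embryos and 1.16-fold higher after sig-7 RNAi, a log2 ratio of 0.22 with an interval of -0.23 to 0.67 (q = 0.566 by Cuffdiff). Both ratios turn below 0 under equal total FPKM, to -0.75 for dsh-2 and -0.54 for mig-5. They do not turn when centred on the median of tested genes. The minor mig-5 isoform was at 3.05 and 0.846 FPKM and did not pass the test (Cuffdiff q = 0.219). The major isoform was at 28.7 and 36.1 FPKM.

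Of the 2 isoforms of apr-1, the major one in the control was at 38.7 FPKM there and 14.6 FPKM in sig-7 RNAi. The other was at 14.2 and 20.7 FPKM, so its share of the gene went from 26.9% to 58.7%. Neither level passed Cuffdiff's test, with q of 0.702 and 0.999881 and implied SEs of 1.86 and 2.41. The shift in shares was not tested.

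The deposited FPKM of all rows summed to 1.69-fold more in sig-7 RNAi, whereas the median log2 ratio of tested genes was -0.01. The choice of scaling bears on every ratio. With both groups scaled to the same total, every log2 ratio dropped by 0.754, and where the 10 rows with the highest values were left out first it dropped by 0.472. These scalings were tried with the results known. With the test remade on the scaled ratios and their implied SEs, 35.2% of tested genes fell and 0.691% rose under equal totals, and 26.4% fell and 1.99% rose without the highest rows. In both, gsk-3, lit-1 and wrm-1 fell. Under equal totals sys-1 (log2 ratio -0.98, remade Cuffdiff-based q = 0.00378) and dsh-2 (-0.75, q = 0.00130) fell too.

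Ratios of one gene to another within a group do not depend on such a scaling. mom-4 stood at 0.629 of lit-1 in the control and at 1.67 of it in sig-7 RNAi (2.66-fold higher). Without the second lit-1 isoform, which Cuffdiff did not test, this ratio was 1.03 in the control and 1.67 in sig-7 RNAi (1.62-fold higher). apr-1 went from 1.07 to 2.13 of gsk-3, its partner in the destruction complex. sys-1 went from 0.201 to 0.281 of pop-1, and wrm-1 from 0.366 to 0.403 of pop-1. lit-1 went from 1.13 to 0.867 of wrm-1, but the direction turned without that isoform, from 0.690 to 0.867. These are pooled values per length with no test, and those with pop-1 or apr-1 carry the wide errors given above.

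Around these genes, other parts of the pathway held falls and no rises by the deposited q. Of 11 tested genes of Wnt ligands, receptors and their secretion, 5 fell and 0 rose, with a median log2 ratio of -1.15. Among all tested genes 17.3% fell and 11.2% rose. With a floor of 1 FPKM in 1 group, 4 of these genes fell. The Wnt genes cwn-2 (15.6 and 1.82 FPKM) and cwn-1 (17.7 and 7.97 FPKM), the Frizzled gene cfz-2 (28.7 and 8.91 FPKM), the Ror gene cam-1 (69.3 and 42.6 FPKM) and the Ryk gene lin-18 (0.794 and 0.162 FPKM) fell. The deposited locus of cam-1 covers 2565 of 14390 annotated bases, so its value may stand for part of the gene. mom-2 and mom-5, the Wnt and Frizzled genes of endoderm induction, were at 66.3 and 79.3 FPKM and at 84.6 and 102.6 FPKM, and were not called. The locus of mom-2 is shared by 288 gene rows, and both ratios turn below 0 under equal totals. The Wnt secretion gene mig-14 was not computed for an excess of fragments and is listed at 0 in both groups.

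Of 11 tested further regulators and cofactors, 6 fell and 0 rose, with a median log2 ratio of -0.95. These counts stand beside 17.3% of all tested genes that fell and 11.2% that rose. dsh-1, the remaining Dishevelled gene, fell from 24.0 to 14.1 FPKM (Cuffdiff q = 0.0123). The Axin-like gene axl-1 went from 1.31 to 0.105 FPKM and tap-1, the gene of an activator of the MOM-4 kinase, from 11.7 to 3.38 FPKM. lin-23, an F-box gene, fell from 25.8 to 13.5 FPKM, cbp-1, the acetyltransferase coactivator gene, from 88.2 to 45.7 FPKM, and hda-1, the gene of a histone deacetylase that acts as a POP-1 corepressor, from 87.3 to 40.1 FPKM. The Groucho corepressor gene unc-37 was at 150.9 and 44.4 FPKM, 3.40-fold lower, and was not called (Cuffdiff q = 0.164) in a locus of 116 gene rows. The Axin gene pry-1 was 3.89-fold lower and not called, in a locus of 281 rows. Of the listed regulators, imb-4 was not found by name.

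Of 12 tested genes listed here as direct or indirect targets of POP-1, SYS-1 or BAR-1, 5 fell and 0 rose. Their median log2 ratio was -0.94. By Cuffdiff's unadjusted p under 0.05, 6 fell and 1 rose (end-3), again without the share of all tested genes at that p. end-1, an endoderm GATA factor gene, fell from 12.2 to 4.77 FPKM, whereas its neighbour and relative end-3 was at 3.13 and 5.63 FPKM and was not called (Cuffdiff q = 0.105). The mesoderm homeobox gene ceh-51, of the sister lineage of the endoderm, fell from 16.7 to 3.85 FPKM, while tbx-35, the T-box gene above it, was at 1.41 and 1.20 FPKM and not called. The others that fell were psa-3 (4.86 and 0.940 FPKM), a Meis-class homeobox gene, the Hox gene lin-39 (5.22 and 2.34 FPKM) and ceh-10 (3.35 and 0.397 FPKM), a homeobox gene of neurons. The difference between end-1 and end-3 was not tested. The 3 lists were chosen with earlier results of these data known. Their counts are thus descriptions beside the 17.3% of all tested genes that fell and the 11.2% that rose. The share that rose depended on level, at 18.6% of tested genes with 10 FPKM or more in the control. Most of the tested targets were below that level, so the 11.2% is not matched to them.

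**Figure D5:**
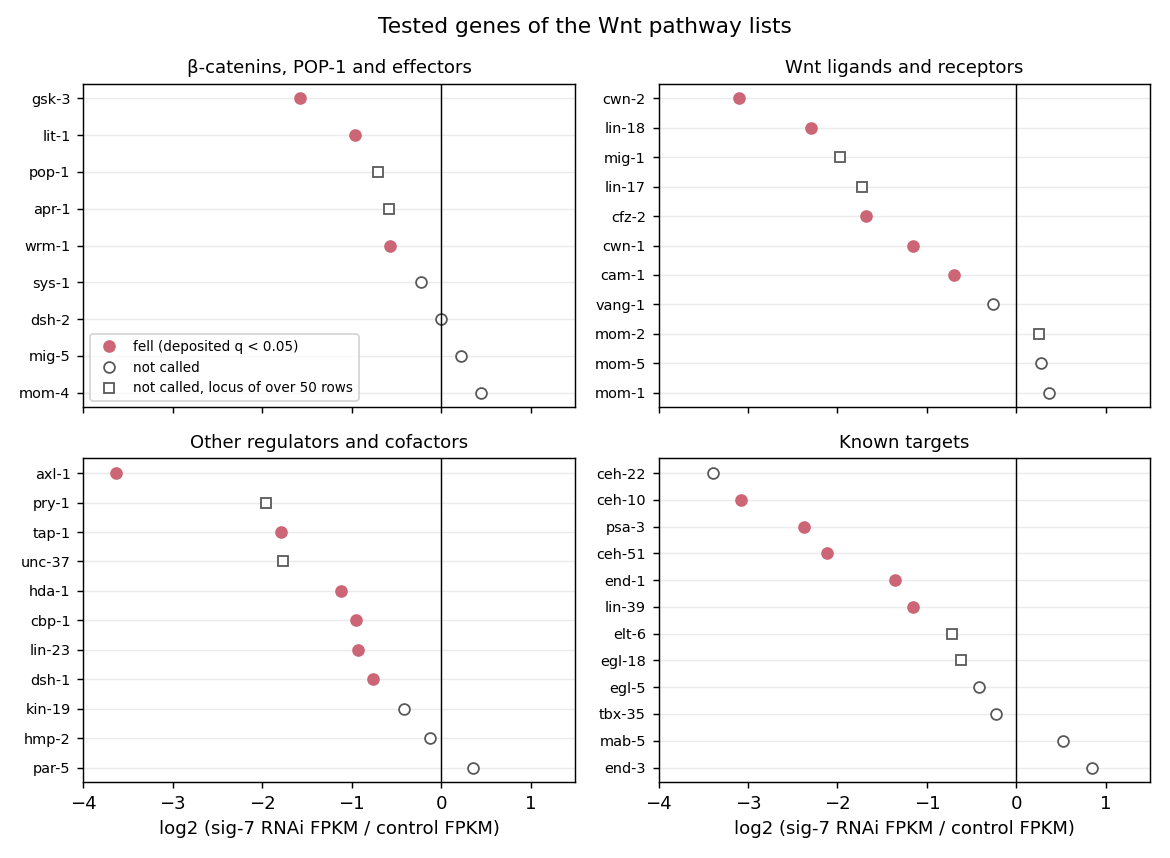
log2 of the FPKM ratio, sig-7 RNAi over control, for the tested genes of 4 lists, sorted within each panel. Filled points fell by the deposited q, and squares mark uncalled genes in loci of over 50 gene rows. All filled points lie below 0, and the squares include pop-1, apr-1, unc-37 and pry-1.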

How the data were processed

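Per the labels' protocols, stranded libraries were made from 1 µg of total RNA after removal of ribosomal RNA by a kit meant for mammals. The submitters' processing notes name the build ce10 and FastQC, TopHat2, Cufflinks 2.1.1 and Cuffdiff 2.0.2. The sources used here give no parameters or annotation and do not say whether strand was used. Deposited by the authors were 3 Cuffdiff tables (genes, isoforms, start site groups). Per the file headers, a row gives 1 FPKM value per group, the log2 ratio, the statistic of the test, its p-value and its q-value. Groups came from the sample titles.

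Folds were computed from the deposited FPKM with no pseudocount. The implied SE is the log2 ratio divided by the deposited statistic, whose normal p equalled the deposited p within 2.69e-06. Benjamini-Hochberg adjustment of the deposited p over tested genes gave the deposited q within 1.55e-06. Deposited starts were read as base 0, since end minus start was 21 in 3801 of 4016 loci with a lone 21U RNA. Spans, exon overlaps and transcript names came from WBcel235 by gene name, and no WBcel235 coordinate is given. Protein and promoter sequences were not used here.

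The genes, the 3 further lists and the tests were chosen with earlier results of these data known. Named genes are all 10 members, sig-7 and, of the 3 further lists, every gene with q under 0.05. mom-2, mom-5, mig-14, lin-17, mig-1, unc-37, pry-1, hmp-2, end-3, tbx-35, egl-18, elt-6, imb-4, the markers skn-1, nos-2 and med-2, and genes with overlapping exons were named after their values were seen. Alternatives were q under 0.01, a floor of 1 FPKM, other scalings, pseudocounts, other tables and locus size. Python 3.11.15, pandas 2.3.3, numpy 2.4.6, scipy 1.17.1 and matplotlib 3.10.9 were used.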

Additional observations from a re-analysis of the deposited data

How the results depend on the processing

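No paired analysis was possible because the deposited data hold only 1 pooled value per group, and for the same reason no replicate could be left out. At q under 0.01, gsk-3 and lit-1 kept their calls and wrm-1 did not, the called targets numbered 3 in place of 5, and 0 genes were called by isoform in place of 1. By isoform table and by start site table, 1 of the 10 genes fell (wrm-1). There gsk-3 and bar-1 were not tested, and no tested lit-1 isoform passed. The share of all isoforms, start site groups or genes called at these settings is not given here. These counts thus have no background to stand beside. With the test remade under equal total FPKM, 5 genes fell and 5 were called, beside 35.2% of all tested genes that fell then and 17.3% by the deposited q. The median log2 ratio of the tested genes then moved from -0.57 to -1.33, and to -1.04 with the 10 highest rows left out. Under these 2 scalings the ratios turned for mom-4 (-0.30 and -0.021), mig-5 (-0.54 and -0.25) and dsh-2 (-0.75 and -0.47). Centred on the median of tested genes they did not turn, at 0.46 for mom-4, 0.22 for mig-5 and 0.0097 for dsh-2. With the test remade on that centring, 3 of the 10 genes fell and 0 rose. Without the second lit-1 isoform, the log2 change of the mom-4 to lit-1 ratio moved from 1.41 to 0.69, and that of the lit-1 to wrm-1 ratio turned from -0.39 to 0.33. The scaling without the highest rows, the ratios centred on the median, the remade tests, the omission of that isoform and the limit on locus size were chosen after seeing the data. Limits are the missing per-library values, the choice of scaling and, for pop-1 and apr-1, the size of the deposited locus.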

Other observations

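Over the 4 lists, 19 of 43 tested pathway genes fell and 0 rose by the deposited q, beside 17.3% of all tested genes that fell and 11.2% that rose. The lists were chosen with earlier results of these data known. The share that rose depends on level, and these shares are not matched to the levels of the listed genes. Of the 43 genes, 8 lay in loci of over 100 gene rows, where 0 were called. These 8 are pop-1, apr-1, the Wnt gene mom-2, the Frizzled gene lin-17, pry-1, unc-37 and the adjacent epidermal GATA factor genes egl-18 and elt-6, with implied SEs from 0.807 to 6.34 on the log2 scale. Of them, 3 were at least 2-fold lower in sig-7 RNAi, namely unc-37, pry-1 and lin-17 (9.69 and 2.92 FPKM). The Frizzled gene mig-1, in a locus of 96 rows, was at 9.94 and 2.53 FPKM and was not called either. For these genes the deposited q does not separate a missing change from an imprecise value.

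Besides lit-1, the start site groups with too little data that stood at 10 FPKM or more in the control and under 0.01 FPKM in sig-7 RNAi belong to B0250.7 (19.2 FPKM in the control, listed at 0 in sig-7 RNAi) and F21A10.2 (12.1 and 0.000233 FPKM), named after their values were seen.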
